A study of Homo sapiens with 9 samples.

Results

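DEAD-box and DEAH-box proteins are RNA helicases, enzymes that bind and hydrolyze ATP to unwind RNA duplexes or to strip proteins from RNA. The names come from a conserved motif in the helicase core, Asp-Glu-Ala-Asp or Asp-Glu-Ala-His in the letters of the amino acids. Each step in the life of an RNA uses members of this family, from spliceosome remodelling and ribosome assembly to export, translation and decay, and most members act together with cofactors that switch on their ATPase. DDX41, a DEAD-box helicase found in the spliceosome and mutated in inherited and sporadic myeloid malignancies, was the gene lowered here, and the question taken to the data was whether its relatives changed with it.

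Members were chosen by name. A gene was a member if its symbol began with DDX or DHX and a digit, with pseudogenes, an antisense gene and 4 genes set aside by name left out. Of 30017 genes in the count table, 63 carried such a symbol and 52 were members. The 11 left out were the 4 set aside by name, 6 pseudogenes and 1 antisense gene. A filter on low counts kept 12712 genes, among them 47 of the 52 members. Of the 5 that did not pass, DDX43 and DDX53, germ line helicases, had 0 counts in all 9 libraries, and the germ line genes DDX4 and DDX25 had 0 to 4 and 0 to 3 counts. The fifth, DDX39B, is described with the export helicases.

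RNA was sequenced from MOLM13 cells, a human acute myeloid leukemia line that has traits of monocytes. The 3 groups were cells with a control hairpin (sh-Control) and cells with either of 2 short hairpin RNAs against DDX41 (Sh-DDX41_1 and Sh-DDX41_2). All were transduced with a pLKO lentivirus that also encodes GFP and were sorted on day 4, and each group had 3 libraries, named by the letters A, B and D. A single cell line was used and all groups carried a hairpin, so untransduced cells were not compared.

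The 9 libraries held 16385238 to 20510032 counts, of which the members made up 0.664% to 0.791%. Levels are in CPM, the count of a gene set against the total of its library, with library totals adjusted by TMM, a trimmed mean of log ratios between libraries. All 9 myeloid and monocytic markers checked were detected, the lowest being ITGAM with a mean of 13.6 CPM. Their summed level was 2495 to 2672 CPM in sh-Control, 2541 to 2697 CPM in Sh-DDX41_1 and 3350 to 3424 CPM in Sh-DDX41_2. The higher sum with Sh-DDX41_2 was that of LYZ, with means of 931 CPM in sh-Control and 1818 CPM in Sh-DDX41_2. The other 8 markers summed to 1581 to 1686, 1704 to 1782 and 1518 to 1605 CPM in the 3 groups in that order. This sum was taken after the values were seen. In the edgeR quasi-likelihood test, 3 of the 9 markers rose and 1 fell with Sh-DDX41_1, and 3 rose and 0 fell with Sh-DDX41_2. CSF1R fell with Sh-DDX41_1 by 0.86 on the log2 scale (adjusted p = 3.79e-05). CD68, CD33 and FLT3 rose with that hairpin by 0.42, 0.25 and 0.20 (adjusted p = 0.000988, 0.00462 and 0.0204). With Sh-DDX41_2, LYZ, ITGAM and PTPRC rose by 0.965, 0.52 and 0.18 (adjusted p = 1.63e-07, 0.00175 and 0.0385). Over all genes, 23.7% rose and 24.1% fell with Sh-DDX41_1, and 11.6% and 13.4% with Sh-DDX41_2. The part of these values in the results was not tested. Markers of other cells were at or near 0, with summed levels of at most 3.27 CPM for 6 lymphoid, 0.425 CPM for 4 erythroid and 0.243 CPM for 4 epithelial genes. Library D of Sh-DDX41_1 stood apart from its group. The chi-square per degree of freedom of its counts was 17.6 and 19.2 against libraries A and B, which differed from each other by 2.91. Counts of members are therefore also given without library D of Sh-DDX41_1.

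DDX41 was lowest with Sh-DDX41_1 and intermediate with Sh-DDX41_2. The gene (GRCh38 chr5:177511577-177517469, minus strand) had 117, 115 and 113 CPM in sh-Control (libraries in the order A, B, D, as throughout), 12.2, 12.9 and 9.95 CPM in Sh-DDX41_1, and 38.9, 39.9 and 42.5 CPM in Sh-DDX41_2. The 3 groups did not overlap, and the order held in every library. Against sh-Control, Sh-DDX41_1 gave a log2 fold change of -3.29 ± 0.09 (SE) with an adjusted p of 4.1e-12 in the edgeR quasi-likelihood test, a loss of 89.8%. For Sh-DDX41_2 it was -1.51 ± 0.08 (adjusted p = 7.04e-09), a loss of 64.8%. The hairpins differed from each other by -1.79 ± 0.09 (adjusted p = 2.22e-09), so DDX41 mRNA gives the groups a graded order against which the relatives can be read. With 3 libraries against 3, an exact permutation test of a single gene cannot give a p under 0.1, and it gave 0.1 for each of these comparisons.

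Beside DDX41, DDX11, DHX40, DHX36 and DDX28 changed by at least 0.5 on the log2 scale in a comparison in which they passed the test. DDX11 and DHX40 fell together with Sh-DDX41_1 and DHX36 fell with Sh-DDX41_2, so the stretches before the RefSeq start sites of these 3 genes (GRCh38.p14) are shown. Each is cut to the bases that lie in no annotated exon and is written 5′ to 3′ on the strand of the gene, with capitals for matches to the motifs searched. The DDX11 stretch is chr12:31074092-31074264 on the plus strand and ends 1 base before the second start annotated for that gene. The DHX40 stretch is chr17:59565360-59565524 on the plus strand, and the DHX36 stretch is chr3:154324498-154324737 on the minus strand.
DDX11: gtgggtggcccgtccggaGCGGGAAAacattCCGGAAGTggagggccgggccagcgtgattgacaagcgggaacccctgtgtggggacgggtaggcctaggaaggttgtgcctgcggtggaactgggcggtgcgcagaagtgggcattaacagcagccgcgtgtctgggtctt
DHX40: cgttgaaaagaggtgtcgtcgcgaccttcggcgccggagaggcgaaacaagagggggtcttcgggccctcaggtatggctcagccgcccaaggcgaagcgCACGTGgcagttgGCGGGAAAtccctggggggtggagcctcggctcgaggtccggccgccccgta
DHX36: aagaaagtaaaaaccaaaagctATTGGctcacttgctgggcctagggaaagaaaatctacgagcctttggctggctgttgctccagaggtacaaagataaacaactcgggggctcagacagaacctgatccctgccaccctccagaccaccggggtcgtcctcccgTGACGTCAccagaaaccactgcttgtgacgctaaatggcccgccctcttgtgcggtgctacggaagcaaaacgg
DDX11 and DHX40 both hold GCGGGAAA, the reverse complement of the E2F motif TTTCCCGC. DDX11 also holds the ETS motif CCGGAAGT, DHX40 the E-box CACGTG, and DHX36 the cyclic AMP response element TGACGTCA and ATTGG, the reverse complement of the NF-Y motif CCAAT. Searched on both strands of 35116 RefSeq promoter windows of 300 bases, TTTCCCGC was present in 1.63% of windows, CCGGAAGT in 4.14%, CACGTG in 7.26%, TGACGTCA in 1.85% and CCAAT in 34.6%. Among 41 members with a window, TTTCCCGC was found in 3 (DDX11, DDX20 and DHX40) and TGACGTCA in 5 (DDX10, DDX19A, DDX28, DDX51 and DHX36). CCGGAAGT was found in 11, CACGTG in 9 and CCAAT in 20. The percentages are of windows, while a member was counted once for a match in any window of it, so the units differ. A further E2F form, TTTGGCGC, was in 0 members and 0.652% of all windows. The motifs do not overlap one another in the stretches shown. Such matches are descriptions of the sequence, and genes that share one did not all pass the test. DDX20, with TTTCCCGC, had a log2 fold change of 0.13 with Sh-DDX41_1 (adjusted p = 0.118). DDX10, with TGACGTCA, had -0.06 with Sh-DDX41_2 (adjusted p = 0.527). DDX28, also with TGACGTCA in its window, rose by 0.43 with Sh-DDX41_1 (adjusted p = 0.000506). With Sh-DDX41_2 DDX28 had -0.07 (adjusted p = 0.547). Its stretch outside exons, of 40 bases, is not shown.

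To place DDX41 within its family, levels were divided by the length of each gene's exons in GENCODE 29. In sh-Control the highest level per length was that of DDX21, a nucleolar helicase of ribosomal RNA transcription and processing, at 173 CPM per kilobase. DDX5, a coregulator of transcription and splicing, followed at 114 CPM per kilobase, DHX9 at 101, DDX1, a tRNA ligase complex component, at 68.4 and the export helicase DDX39A at 67.7. DDX41 ranked 14 of the 51 members matched to the annotation, with 25.3 CPM per kilobase in sh-Control, 2.58 in Sh-DDX41_1 and 8.91 in Sh-DDX41_2. The lowest of the clearly detected members was DHX57 at 2.81 CPM per kilobase, and DHX58, an RNA sensor induced by interferon, passed the filter at only 0.139 CPM per kilobase.

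**Figure D1:**
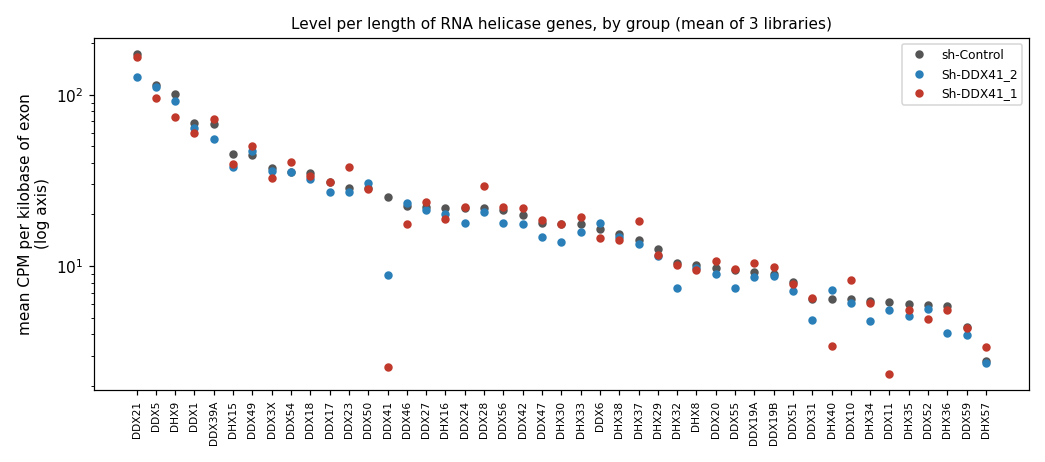
Mean level in CPM per kilobase of exon (log axis) of the 45 members above 1 CPM per kilobase in sh-Control, ordered by that level, with 1 point per group (gray sh-Control, blue Sh-DDX41_2, red Sh-DDX41_1) and 3 libraries behind each point. DDX41, at rank 14, drops from 25.3 to 8.91 and 2.58, while the points of most other members lie close together.

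To ask whether relatives of DDX41 changed, each hairpin was compared with sh-Control. With Sh-DDX41_1, 6 members rose and 12 fell, of 47 tested, or 12.8% and 25.5%. The falls include DDX41, the target of the hairpins, and without it 6 rose and 11 fell of 46. The same test called 23.7% of all genes higher and 24.1% lower, so the members' share was below the background for rises and near it for falls. The median log2 fold change was -0.03 over the members and 0.01 over all genes. At an unadjusted p under 0.05, 9 members were higher and 12 lower. The share of all genes at that limit was not counted, here or in the other comparisons. The falls were DDX41, DDX11, DHX40, DHX9, DDX46, DDX52, DDX5, DHX16, DDX1, DDX3X, DHX15 and DDX6, and the rises were DDX28, DDX23, DDX10, DHX37, DDX54 and DDX19A. Without library D of Sh-DDX41_1 the counts were 8 higher and 9 lower, with DDX3X, DDX6, DHX15 and DDX54 no longer called and DDX42, DHX33 and DHX57 newly called higher. In that fit 24.6% of all genes were higher and 23.8% lower. With the replicate letter as a block, 8 were higher and 12 lower, with DDX49 and DHX57 added.

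With Sh-DDX41_2, 0 members rose and 14 fell (29.8% of those tested). Without DDX41 itself, 0 rose and 13 fell of 46. The same test called 11.6% of all genes higher and 13.4% lower. At an unadjusted p under 0.05, 2 members were higher and 17 lower, and DESeq2 and limma voom also called 0 higher and 14 lower. The log2 fold change was below 0 for 41 of the 47 members and for 51.8% of all genes, with medians of -0.12 and -0.01. The falls were DDX41, DHX36, DDX26B, DHX32, DDX21, DDX31, DHX34, DDX55, DHX30, DDX39A, DDX24, DDX47, DDX56 and DHX15. Without library D of Sh-DDX41_1, whose spread enters the common fit, 1 member was called higher (DHX40) and 18 lower, while the calls over all genes also grew, to 16.2% higher and 16.7% lower. The members as a share of all counts were 0.664% to 0.674% in the Sh-DDX41_2 libraries, 0.668% to 0.73% in Sh-DDX41_1 and 0.724% to 0.791% in sh-Control. In bulk RNA, fewer cells with a transcript and less of it per cell cannot be told apart.

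**Figure D2:**
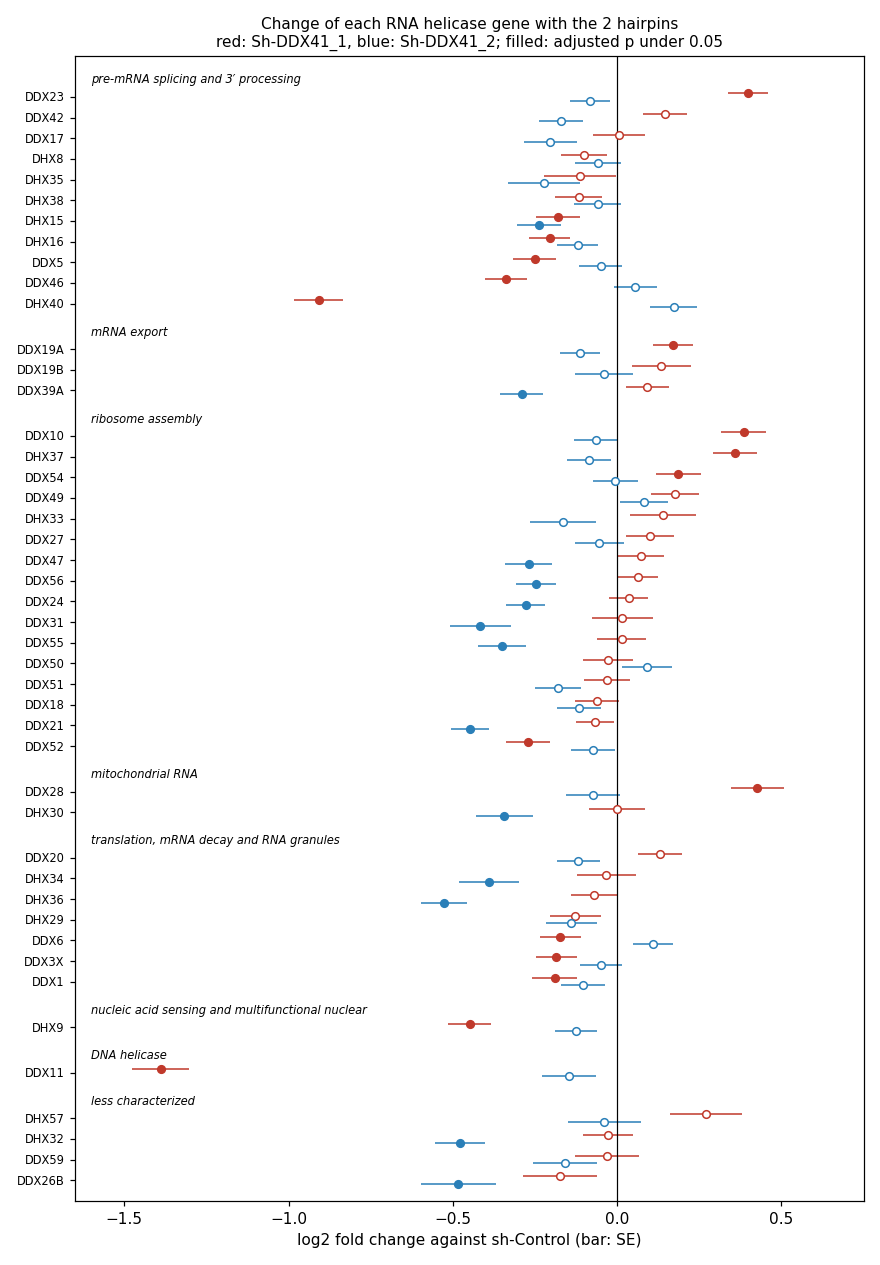
Log2 fold change of each tested member against sh-Control with its SE (bars), grouped by role, for Sh-DDX41_1 (red) and Sh-DDX41_2 (blue), filled where the adjusted p was under 0.05. DDX41 and the near-absent DHX58 are not drawn. DDX11 at -1.39 and DHX40 at -0.91 stand apart on the left with Sh-DDX41_1 alone, and all filled blue points lie below 0.

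The count of members called lower with both hairpins was near the share of all genes. DDX41 and DHX15 were called lower with both, 2 of 47 members beside 5.82% of all genes. DDX41 is the target of the hairpins, so DHX15 was the only other member among these. Members were chosen by symbol, and EIF4A3, an RNA helicase with another symbol, also fell with both, as given below. Higher with both were 0 members beside 5.37%, and 0 were called in opposite directions beside 3.05%. DHX15, the helicase that takes apart the spliceosome after splicing, had 335, 388 and 374 CPM in sh-Control, 317, 340 and 311 CPM in Sh-DDX41_1, and 315, 314 and 301 CPM in Sh-DDX41_2. Its values overlapped between sh-Control and Sh-DDX41_1, where the log2 fold change was -0.18 ± 0.07 (adjusted p = 0.0378), and did not with Sh-DDX41_2, where it was -0.24 ± 0.07 (adjusted p = 0.0176). The call for both hairpins was lost in 9 of the 18 other settings run, because adjusted p reached 0.204 and 0.0898, so DDX41 was the only member called lower with both in all of them. DDX26B was also called lower with both when library A of sh-Control was left out. A rise with both hairpins was called for 0 members in all 18. Opposite calls appeared for DHX40 with upper quartile scaling and with only the 6 libraries compared, and for DHX40, DDX42 and DHX33 without library D of Sh-DDX41_1.

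A member may instead follow the amount of DDX41 left. A gene was called graded where every Sh-DDX41_2 library lay between all sh-Control and all Sh-DDX41_1 libraries. Of the 47 members, DDX41 included, 4 were graded (beside 4.48% of all genes), and 0 followed the reverse order (beside 3.17%). The other three were DHX9, DDX11 and DDX3X. DHX9, a helicase of many nuclear RNAs and of R-loops, had 538, 590 and 581 CPM in sh-Control, 524, 534 and 508 CPM in Sh-DDX41_2, and 419, 441 and 391 CPM in Sh-DDX41_1. Each step was downward, but the step between sh-Control and Sh-DDX41_2 was small, with a log2 fold change of -0.13 ± 0.06 (adjusted p = 0.177), against -0.45 ± 0.07 (adjusted p = 5.41e-05) for Sh-DDX41_1. The count ranged from 4 to 6 when each library was left out in turn, and with median-of-ratios scaling it was 3. The order of groups was read from the same values as the tests above and is no separate evidence.

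**Figure D3:**
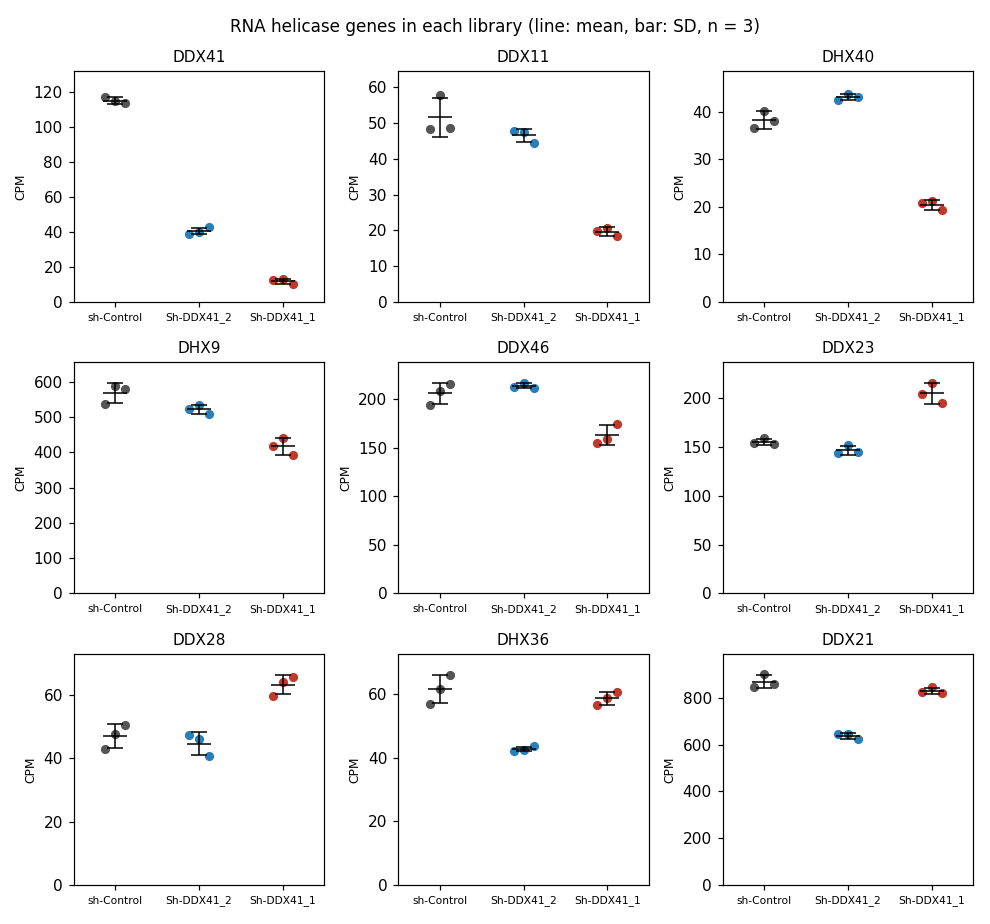
CPM of 9 members in each library (points), with the mean (line) and SD (bar) of the 3 libraries per group, on axes that start at 0. DDX11 and DHX40 are lowest in Sh-DDX41_1, DHX36 and DDX21 are lowest in Sh-DDX41_2, and DDX23 and DDX28 are highest in Sh-DDX41_1.

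The largest change after DDX41 was that of DDX11, a DNA helicase that acts in sister chromatid cohesion and in replication (GRCh38 chr12:31073845-31104791, plus strand). It had 48.4, 57.9 and 48.6 CPM in sh-Control, 20, 20.7 and 18.4 CPM in Sh-DDX41_1, and 47.9, 47.5 and 44.5 CPM in Sh-DDX41_2. All Sh-DDX41_1 libraries lay far below the others, with a log2 fold change of -1.39 ± 0.09 (adjusted p = 1.68e-08), a loss of 61.8%. With Sh-DDX41_2 the value was -0.15 ± 0.08 (adjusted p = 0.213), and the difference between hairpins was -1.24 ± 0.09 (adjusted p = 4.45e-08). Reads of DDX11 cannot be told apart with certainty from those of its near-identical pseudogene DDX12P. DDX12P had means of 17.3, 6.14 and 13.2 CPM in sh-Control, Sh-DDX41_1 and Sh-DDX41_2 and fell with Sh-DDX41_1 by 1.49 on the log2 scale (adjusted p = 7.65e-06). With the reads of both summed, a step added after the data were seen, the changes were -1.42 (adjusted p = 2.88e-08) and -0.20 (adjusted p = 0.109).

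Of the 12 splicing members tested, DDX41 included, 1 rose and 6 fell with Sh-DDX41_1, and 0 rose and 2 fell with Sh-DDX41_2. Over all genes, 23.7% were higher and 24.1% lower with Sh-DDX41_1 and 11.6% and 13.4% with Sh-DDX41_2. The 2 falls with Sh-DDX41_2, near the background, were DDX41, the target of the hairpins, and DHX15. DDX41 is also among the 6 falls with Sh-DDX41_1. With library D of Sh-DDX41_1 left out these counts were 2 and 5, and 1 and 4. The median log2 fold change was -0.15 with Sh-DDX41_1 and -0.10 with Sh-DDX41_2. DHX40, a DEAH-box protein related to the splicing helicases of its class (chr17:59565525-59608345, plus strand), had 36.5, 40.3 and 38.1 CPM in sh-Control, 20.7, 21.1 and 19.3 CPM in Sh-DDX41_1, and 42.5, 43.8 and 43.2 CPM in Sh-DDX41_2. The Sh-DDX41_1 libraries lay below and the Sh-DDX41_2 libraries above all sh-Control libraries. The fall with Sh-DDX41_1 was -0.91 ± 0.08 (adjusted p = 2.12e-07), the change with Sh-DDX41_2 was 0.17 ± 0.07 (adjusted p = 0.0894), and the hairpins differed by -1.08 ± 0.07 (adjusted p = 3.69e-08).

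DDX46, DDX23 and DDX42, which act with U2 or U5 snRNP, did not move alike with Sh-DDX41_1. DDX46, which helps U2 snRNP engage the branch site (chr5:134758771-134855133, plus strand), had 194, 208 and 215 CPM in sh-Control, 155, 159 and 174 CPM in Sh-DDX41_1, and 213, 217 and 212 CPM in Sh-DDX41_2. It was lowest in the 3 Sh-DDX41_1 libraries and fell by -0.34 ± 0.07 (adjusted p = 0.000613), with 0.06 ± 0.06 (adjusted p = 0.573) for Sh-DDX41_2. DDX23, the helicase of U5 snRNP that acts as U6 replaces U1 at the 5′ splice site (chr12:48829764-48852842, minus strand), had 154, 159 and 153 CPM in sh-Control, 205, 216 and 195 CPM in Sh-DDX41_1, and 143, 152 and 145 CPM in Sh-DDX41_2. It was the only splicing member called higher with Sh-DDX41_1, at 0.40 ± 0.06 (adjusted p = 8.76e-05), while Sh-DDX41_2 gave -0.08 ± 0.06 (adjusted p = 0.348). DDX42, which binds the SF3b part of U2 snRNP (chr17:63773603-63819317, plus strand), had 160, 177 and 169 CPM in sh-Control, 181, 202 and 177 CPM in Sh-DDX41_1, and 149, 150 and 150 CPM in Sh-DDX41_2. Its values with Sh-DDX41_1 overlapped those of sh-Control in part, at 0.15 ± 0.07 (adjusted p = 0.0838), and with Sh-DDX41_2 they lay below, at -0.17 ± 0.07 (adjusted p = 0.073). Both passed with library D of Sh-DDX41_1 left out, at 0.19 (adjusted p = 0.0161) and -0.16 (adjusted p = 0.0342).

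DDX5 and DDX17 are close paralogs that act on transcription, splicing and microRNA processing, and they did not change alike. DDX5 (chr17:64499616-64508199, minus strand) had 778, 883 and 871 CPM in sh-Control, 686, 733 and 710 CPM in Sh-DDX41_1, and 838, 814 and 795 CPM in Sh-DDX41_2. It was lower in every Sh-DDX41_1 library than in any other, with -0.25 ± 0.07 (adjusted p = 0.00555), and -0.05 ± 0.07 (adjusted p = 0.619) for Sh-DDX41_2. DDX17 (chr22:38483440-38507660, minus strand) had 269, 344 and 317 CPM in sh-Control, 309, 330 and 294 CPM in Sh-DDX41_1, and 269, 267 and 271 CPM in Sh-DDX41_2. The sh-Control libraries of DDX17 spread over most of the range of both other groups, and its changes were 0.01 ± 0.08 (adjusted p = 0.963) and -0.20 ± 0.08 (adjusted p = 0.0762). The direction of the first is not fixed, since it turned to -0.01 without scaling factors. The second was called in 4 settings, with the replicate letter as a block (adjusted p = 0.0487), with only the 6 libraries compared (adjusted p = 0.0457), without library D of Sh-DDX41_1 (adjusted p = 0.0343) and without library A of sh-Control (-0.30, adjusted p = 0.00794), and it was -0.12 (adjusted p = 0.339) without library B of sh-Control. Among the DEAH-box helicases of the catalytic spliceosome, DHX16 fell with Sh-DDX41_1 by 0.21 on the log2 scale (adjusted p = 0.0134), a call lost with upper quartile scaling (adjusted p = 0.0973) and without library B of Sh-DDX41_1 (adjusted p = 0.0537). DHX8 at -0.10, DHX38 at -0.12 and DHX35 at -0.11 did not pass, and with Sh-DDX41_2 these 4 had -0.06 to -0.22, none called.

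Most ribosome assembly helicases, the largest role among the members, were higher with Sh-DDX41_1 than with Sh-DDX41_2. Of 16 tested, 3 rose and 1 fell with Sh-DDX41_1, and 0 rose and 6 fell with Sh-DDX41_2, with medians of 0.05 and -0.14 on the log2 scale. Beside the shares of all genes called, 23.7% higher and 24.1% lower with Sh-DDX41_1 and 13.4% lower with Sh-DDX41_2, both counts with Sh-DDX41_1 were below the background. Compared directly, 10 were higher and 1 lower with Sh-DDX41_1 than with Sh-DDX41_2, with a median of 0.31 beside 0.01 for all genes, of which 24.6% were called higher and 24.2% lower. Without library D of Sh-DDX41_1 the counts were 3 and 1, 0 and 8, and 9 and 2. The 3 that rose with Sh-DDX41_1 were DDX10 (0.38 ± 0.07, adjusted p = 0.000282) and DHX37 (0.36 ± 0.07, adjusted p = 0.000472), which act on the small subunit, and DDX54 (0.19 ± 0.07, adjusted p = 0.0355). The DDX54 call was lost in 7 settings, among them without library B or D of sh-Control or library D of Sh-DDX41_1, with an adjusted p of up to 0.124. DDX52, of the small subunit, fell at -0.27 ± 0.07 (adjusted p = 0.0039).

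DDX21, the most abundant member, was singled out after its values were seen. It had 848, 903 and 861 CPM in sh-Control, 824, 846 and 822 CPM in Sh-DDX41_1, and 645, 646 and 624 CPM in Sh-DDX41_2. The Sh-DDX41_2 libraries were apart from all others, with -0.45 ± 0.06 (adjusted p = 7.26e-05), a loss of 26.7%. Sh-DDX41_1 gave -0.07 ± 0.06 (adjusted p = 0.358), and the difference between hairpins was 0.38 ± 0.06 (adjusted p = 8.41e-05). The other 5 that fell with Sh-DDX41_2 were DDX31 at -0.42, DDX55 at -0.35, DDX24 at -0.28, DDX47 at -0.27 and DDX56 at -0.25, with adjusted p from 0.00331 to 0.0129. The call of DDX47 was lost without library D of sh-Control or library B or D of Sh-DDX41_2 (adjusted p up to 0.0618), and that of DDX56 without library B of Sh-DDX41_2 (adjusted p = 0.0543). Part of the exons of DDX47 (36.5%) is shared with APOLD1 on the same strand, so its reads are less certain. DDX18, DDX27, DDX49, DDX50, DDX51 and DHX33 passed in neither comparison with sh-Control, with log2 fold changes from -0.18 to 0.18. DDX49 passed with Sh-DDX41_1 when the replicate letter was a block (0.17, adjusted p = 0.0475).

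Among the helicases of mRNA export, DDX39A, which loads export factors onto spliced mRNA, fell with Sh-DDX41_2 at -0.29 ± 0.07 (adjusted p = 0.00504) and had 0.09 ± 0.07 (adjusted p = 0.266) with Sh-DDX41_1. DDX19A, which releases mRNA at the nuclear pore, rose with Sh-DDX41_1 at 0.17 ± 0.06 (adjusted p = 0.0299), and its paralog DDX19B had 0.13 ± 0.09 (adjusted p = 0.228). The DDX19A call was lost in 5 settings, with an adjusted p of up to 0.0872. DDX19A and DDX19B share sequence, and 23.8% and 15.7% of their exon bases lie in a further annotated gene, so reads may be split among them. DDX39B, the near-identical partner of DDX39A and usually abundant, had 0 to 6 counts per library. Of 13 protein-coding genes of the table within 100 kilobases, 3 had at most 10 counts in any library, among them the adjacent MCCD1 with 0 and ATP6V1G2 with 2 to 8. The next gene, NFKBIL1, had 330 to 493 counts, and the highest, PRRC2A, had 7007 to 14660. In GENCODE 29 a readthrough gene on the same strand holds 29.7% of the exon bases of DDX39B and had 0 counts. What keeps the counts of DDX39B low was not tested, and no change of it can be read from these libraries.

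The pair of mitochondrial helicases differed by hairpin. DDX28, which acts in mitochondrial ribosome assembly (chr16:68021274-68023442, minus strand), had 43, 47.7 and 50.5 CPM in sh-Control, 59.9, 64.2 and 65.8 CPM in Sh-DDX41_1, and 47.5, 46 and 40.6 CPM in Sh-DDX41_2. All Sh-DDX41_1 libraries were above the rest, with 0.43 ± 0.08 (adjusted p = 0.000506) against sh-Control and 0.50 ± 0.08 (adjusted p = 0.000124) against Sh-DDX41_2. With Sh-DDX41_2 the change was -0.07 ± 0.08 (adjusted p = 0.547). The exons of DUS2 on the opposite strand overlap 22.5% of those of DDX28, and whether the counting used the strand is not given in the sources used here. DHX30, a factor of mitochondrial translation, had -0.001 ± 0.09 (adjusted p = 0.994) with Sh-DDX41_1 and fell with Sh-DDX41_2 at -0.34 ± 0.09 (adjusted p = 0.00935), a call lost without library B of sh-Control or library B of Sh-DDX41_2 (adjusted p = 0.0571 and 0.0548).

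Of the 7 helicases of translation, mRNA decay and RNA granules, 0 rose and 3 fell with Sh-DDX41_1, and 0 rose and 2 fell with Sh-DDX41_2. Among all genes 24.1% and 13.4% were called lower. Without library D of Sh-DDX41_1 only 1 fell with that hairpin, DDX1. DHX36, which unwinds G-quadruplexes in mRNA (chr3:154272546-154324497, minus strand), had 57.1, 61.7 and 66.2 CPM in sh-Control, 56.5, 59 and 60.7 CPM in Sh-DDX41_1, and 42.3, 42.4 and 43.6 CPM in Sh-DDX41_2. The Sh-DDX41_2 libraries were well below both other groups, which overlapped. The fall with Sh-DDX41_2 was -0.53 ± 0.07 (adjusted p = 8.39e-05), the largest of any member after DDX41 in that comparison, and Sh-DDX41_1 gave -0.07 ± 0.07 (adjusted p = 0.419), which turned to 0.005 with upper quartile scaling. DHX34, a factor of nonsense-mediated decay, also fell with Sh-DDX41_2 at -0.39 ± 0.09 (adjusted p = 0.00625).

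DDX3X, which promotes translation initiation on structured mRNA (chrX:41333284-41364472, plus strand), had 592, 600 and 586 CPM in sh-Control, 538, 545 and 481 CPM in Sh-DDX41_1, and 583, 579 and 557 CPM in Sh-DDX41_2. The order of the groups was that of DDX41, the steps were small, and reads of a close homologue may be counted with it. The fall with Sh-DDX41_1 was -0.19 ± 0.06 (adjusted p = 0.0252), lost in 4 settings with an adjusted p of up to 0.164, and Sh-DDX41_2 gave -0.05 ± 0.06 (adjusted p = 0.614). With library D of Sh-DDX41_1 left out the fall was -0.12 (adjusted p = 0.075). DDX6, the decapping activator of P-bodies, and DDX1 had -0.17 and -0.19 with Sh-DDX41_1 (adjusted p = 0.032 and 0.0315), and these calls were lost in 7 and 6 settings. DHX29 and DDX20 passed in neither comparison with sh-Control, at -0.13 and 0.13 with Sh-DDX41_1 and -0.14 and -0.12 with Sh-DDX41_2.

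The 4 less characterized members gave 0 calls with Sh-DDX41_1. With Sh-DDX41_2, DHX32 fell at -0.48 ± 0.08 (adjusted p = 0.000419), as did DDX26B, the older symbol of an Integrator-related gene, at -0.48 ± 0.11 (adjusted p = 0.00629). DHX57 had 0.27 with Sh-DDX41_1 (adjusted p = 0.0535, and 0.0321 with the replicate letter as a block), and DDX59 had -0.03 and -0.16. DHX58 had 8 to 22 counts per library, and its changes of 0.51 ± 0.39 and 0.82 ± 0.37 did not pass (adjusted p = 0.296 and 0.122). Its SE was 0.354 to 0.392 over the 3 comparisons, against 0.0584 to 0.115 for the other members tested.

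The hairpins were then compared directly, which tests their difference itself. Of 47 members, 23 were higher and 8 lower with Sh-DDX41_1 than with Sh-DDX41_2 (48.9% and 17%). The same test called 24.6% of all genes higher and 24.2% lower. Without DDX41 itself, 23 members were higher and 7 lower of 46. The median was 0.18 over the members and 0.01 over all genes, and 32 of the 47 values were above 0. At an unadjusted p under 0.05 the counts were 24 and 9, and without library D of Sh-DDX41_1 they were 22 and 9. In the fit without that library, 24.3% of all genes were higher and 24.8% lower. The 8 lower were DDX41, DDX11, DHX40, DDX46, DHX9, DDX6, DDX5 and DDX52. By name, the 30 DDX members other than DDX41 gave 16 higher and 5 lower, and the 16 DHX members gave 7 higher and 2 lower. In the role groups for export, mitochondrial RNA, ribosome assembly, translation and decay, and the less characterized members, calls on the higher side outnumbered those on the lower side. The calls of DDX5, DDX17, DDX26B, DDX52, DDX54, DHX33 and DHX57 were lost without at least 1 library of either hairpin, with an adjusted p of up to 0.173. Since both hairpins shared the sh-Control libraries, the 2 comparisons with sh-Control are not independent of each other.

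**Figure D4:**
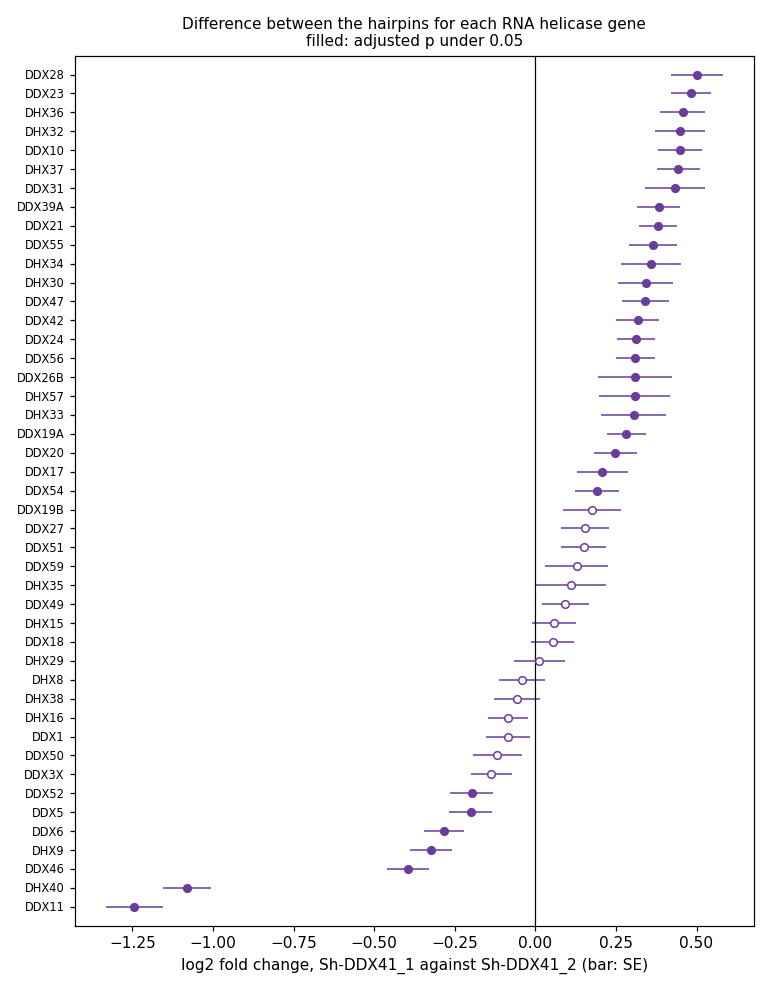
Log2 fold change of Sh-DDX41_1 against Sh-DDX41_2 for each tested member with its SE (bars), ordered by value and filled where the adjusted p was under 0.05. DDX41, at -1.79, and DHX58 are not drawn. Of the members shown, 23 filled points lie above 0, up to 0.50 for DDX28, and DDX11 and DHX40 lie lowest at -1.24 and -1.08.

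Genes that work with the members were described from lists. For the counts of each list, the shares of all genes called were 23.7% higher and 24.1% lower with Sh-DDX41_1. They were 11.6% and 13.4% with Sh-DDX41_2, and 24.6% and 24.2% between the hairpins. Calls of these genes come from the main fit and were not followed through the other settings. Of 15 RNA helicases with other symbols, 3 rose and 5 fell with Sh-DDX41_1 and 2 rose and 1 fell with Sh-DDX41_2. EIF4A2, a translation initiation helicase, rose with Sh-DDX41_1 at 0.72 ± 0.09 (adjusted p = 1.01e-05), as did ZNFX1 at 0.68 ± 0.12 (adjusted p = 0.000363). EIF4A1, of the same list, had 0 counts in all 9 libraries and was not tested, so no change of it can be read. AQR, the intron-binding helicase of the spliceosome, rose with both hairpins, at 0.33 ± 0.07 with Sh-DDX41_2 (adjusted p = 0.00273) and 0.26 with Sh-DDX41_1 (adjusted p = 0.00567). EIF4A3 fell with both, at -0.20 ± 0.07 with Sh-DDX41_1 (adjusted p = 0.0237) and -0.20 ± 0.07 with Sh-DDX41_2 (adjusted p = 0.0465). HELZ2 rose with Sh-DDX41_2 at 0.45 ± 0.15 (adjusted p = 0.0448). Between the hairpins 3 were higher and 4 lower with Sh-DDX41_1, the smallest p being those of EIF4A2 at 0.82 and SKIV2L, the cytoplasmic exosome helicase, at -0.47 (adjusted p = 2.76e-06 and 9.52e-05).

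Of 15 G-patch proteins, cofactors that activate DEAH-box helicases, 6 rose and 2 fell with Sh-DDX41_1, 2 rose and 1 fell with Sh-DDX41_2, and 6 were higher and 3 lower between the hairpins. ZGPAT rose at 0.67 and GPATCH3 at 0.65 with Sh-DDX41_1 (adjusted p = 1.58e-05 and 4.74e-05). With Sh-DDX41_2, CMTR1, a cap methyltransferase, rose at 0.42 and NKRF, a partner of DHX15 in rRNA processing, fell at -0.31 (adjusted p = 0.000183 and 0.00473). With Sh-DDX41_1, CMTR1 rose too, at 0.36 (adjusted p = 0.000224), and NKRF moved the opposite way, at 0.27 (adjusted p = 0.00461). NKRF at 0.57 and GPATCH4 at 0.60 differed between the hairpins with the smallest p (adjusted p = 8.09e-06 and 1.74e-05).

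Of 10 MIF4G and related proteins, cofactors of DEAD-box helicases, 1 rose and 6 fell with Sh-DDX41_1, 1 rose and 1 fell with Sh-DDX41_2, and 1 was higher and 6 lower between the hairpins. With Sh-DDX41_1, EIF4G3, a scaffold of translation initiation, fell at -0.68 and the nucleolar protein NOM1 at -0.52 (adjusted p = 8.4e-06 and 2.24e-05). With Sh-DDX41_2, NOM1 fell at -0.30 and GLE1, the activator of DDX19 at the nuclear pore, rose at 0.22 (adjusted p = 0.00485 and 0.0185), whereas GLE1 fell with Sh-DDX41_1 at -0.19 (adjusted p = 0.0223). EIF4G3 at -0.88 and CWC22, the splicing factor that binds EIF4A3, at 0.45 differed most clearly between the hairpins (adjusted p = 6.7e-07 and 5.36e-05). NOM1 was thus lower with both hairpins.

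Of 8 partners of DDX6, 2 rose and 2 fell with Sh-DDX41_1, 0 rose and 2 fell with Sh-DDX41_2, and 3 were higher and 2 lower between the hairpins. The decapping enzyme DCP2 fell with Sh-DDX41_1 at -0.62 (adjusted p = 8.66e-06), and its activator DCP1A rose at 0.48 (adjusted p = 0.00116). DCP1A fell with Sh-DDX41_2 at -0.31 and LSM14A at -0.18 (adjusted p = 0.0397 and 0.0429), so DCP1A moved in opposite directions with the hairpins. The differences between hairpins were -0.67 for DCP2 and 0.79 for DCP1A (adjusted p = 3.74e-06 and 1.66e-05).

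Of 11 partners of DDX39B in the TREX export complex, 2 rose and 3 fell with Sh-DDX41_1, 0 rose and 3 fell with Sh-DDX41_2, and 4 were higher and 2 lower between the hairpins. THOC2, the scaffold of the THO complex, fell with both, at -0.43 and -0.23 (adjusted p = 0.000127 and 0.0253). POLDIP3 rose with Sh-DDX41_1 at 0.45 (adjusted p = 0.000361) and had 0.07 with Sh-DDX41_2 (adjusted p = 0.557). CHTOP moved in opposite directions, at -0.22 with Sh-DDX41_2 (adjusted p = 0.0131) and 0.30 with Sh-DDX41_1 (adjusted p = 0.000668). CHTOP at 0.51 and POLDIP3 at 0.38 also differed between the hairpins (adjusted p = 4.63e-06 and 0.00134).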

How the data were processed

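MOLM13 cells with sh-Control, Sh-DDX41_1 or Sh-DDX41_2 were profiled by poly(A) RNA-seq. The authors deposited raw read counts per gene for the 9 libraries, and 0 columns were left unmapped. The submitters' processing notes name FastQC 0.11.7, HISAT2 2.0.5 and featureCounts 1.5.2 and both a human and a mouse build. The annotation, the treatment of reads with several matches and the use of strand are not given in the sources used here. The labels name a stranded kit and the study's methods an unstranded one of the same maker. The labels do not say that the libraries of a group came from separate cultures, so p-values measure the spread between these libraries, which may be technical.

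Tests were run with edgeR 4.0.16 in R 4.3.3 (filterByExpr with a minimum count of 10, TMM, quasi-likelihood test, all 9 libraries in 1 fit). P-values were two-sided and adjusted by Benjamini-Hochberg over 12712 genes, with calls at 0.05. SE is the log2 fold change divided by the square root of F. The common biological coefficient of variation was 0.0768. Chromosome positions, exon lengths and overlaps came from GENCODE 29 by symbol (51 of 52 members), whose build may differ in detail from the annotation counted against. Promoter windows came from RefSeq.

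The members and lists were chosen with earlier results of these data known. DDX41, the splicing members DDX23, DDX42 and DDX46, DDX5, DDX17 and DDX3X, and each called member with a log2 fold change of at least 0.5 in size were to be given in every library, and for each other list the 2 genes of smallest adjusted p. DHX9, DHX15 and DDX21, the promoters and the motifs were added after the values were seen. Deviations from the group means correlated between libraries of the same letter for sh-Control and Sh-DDX41_1 (r from 0.135 to 0.3807 over 3 pairs, against -0.2908 to 0.1514 for different letters) but not for Sh-DDX41_2 with sh-Control (-0.0967 to 0.011) or Sh-DDX41_1 (-0.056 to 0.027). The labels do not say what a letter stands for. The fit was kept without the letter, and the fit with it as a block is given where it changes a call. Alternatives were other scaling factors, filters and thresholds, the DESeq2 1.42.0 Wald test, limma voom (limma 3.58.1), only the libraries compared, the letter as a block and each library left out.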

Additional observations from a re-analysis of the deposited data

How the results depend on the processing

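Of 63 calls of members in the 3 comparisons, 45 held their direction and call under every alternative fit and with each library left out, 18 lost the call in at least 1, and 0 reversed. Upper quartile scaling moved the median over all genes from 0.01 to 0.09 (log2) with Sh-DDX41_1 and the share of calls that were higher from 49.5% to 61.1% (46.3% to 55.8% with Sh-DDX41_2), and with it 10 members were higher and 7 lower with Sh-DDX41_1 and 1 higher with Sh-DDX41_2. That scaling called 6302 and 3170 of 12712 genes in these 2 comparisons. With an adjusted p under 0.01, 4 members were higher and 7 lower with Sh-DDX41_1, and 0 and 12 with Sh-DDX41_2. Between the hairpins the counts at 0.01 were 18 and 6. The shares of all genes at this limit and at the fold change limit that follows were not counted. With a fold change of at least 1.5 added, 0 members were higher and 3 lower with Sh-DDX41_1, DDX41 included. With Sh-DDX41_2 1 was lower, DDX41 itself. Between the hairpins 0 were higher and 3 lower, DDX41 included. With only the 6 libraries compared, 1 member was higher with Sh-DDX41_2. When each library was left out in turn, the members higher with Sh-DDX41_2 ranged from 0 to 1 (1 without library D of Sh-DDX41_1) and the members graded in reverse from 0 to 1 (1 without library A of sh-Control). DDX17 with Sh-DDX41_1 was 0.01 and turned to -0.0076 without scaling factors, and ranged from -0.0885 to 0.0884 with each library left out, and DHX36 with Sh-DDX41_1 turned from -0.07 to 0.005 with upper quartile scaling. The causes were not tested. With the replicate letter as a block, 8 members were higher and 12 lower with Sh-DDX41_1, 0 and 15 with Sh-DDX41_2, and 23 and 8 between the hairpins, and DDX41 fell by 3.29 and 1.51 on the log2 scale. The block added the calls of DDX49 and DHX57 with Sh-DDX41_1 and DDX17 with Sh-DDX41_2 and changed no other. Low counts widen the error, as for DHX58 with 8 to 22 counts per library and an SE of up to 0.392.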
